A study of Homo sapiens with 9 samples.

Results

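The synaptic leucine-rich repeat genes examined here are LRRC4C, LRRTM1, LRRTM4, SLITRK1, SLITRK3, SLITRK5, SLITRK6, FLRT2 and FLRT3, 9 of the 20037 protein-coding genes in the gene table. They were chosen by name, as leucine-rich repeat adhesion genes that mostly lie in gene deserts, and all 9 were found in the table. H3K9me3, the histone mark of constitutive heterochromatin, was mapped by Cut&Run, in which a nuclease tethered to an antibody releases the marked DNA for sequencing. The cells were hTERT RPE-1, an established human line of retinal pigment epithelium immortalised with telomerase. The LmnB1 group held clones LmnB1_16 and LmnB1_6, which overexpressed lamin B1 fused to mCherry. The mCherry group held clones mCherry_3 and mCherry_4, which overexpressed mCherry alone. Each clone gave 2 biological replicates, and doxycycline at 0.05 ug/mL for 24 h was given to every H3K9me3 sample. Each line is 1 clone, so a difference between clones of 1 construct and a difference between cultures add to the spread within a group. The series also holds 1 input sample from wild-type cells, which was not analysed here on its own.

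The proteins encoded by these genes sit in the neuronal membrane and carry leucine-rich repeats outside the cell, with which they bind partners on the facing membrane and help to form synapses. LRRC4C binds netrin-G1, LRRTM proteins bind neurexins, SLITRK proteins bind receptor phosphatases such as PTPRD, and FLRT proteins bind latrophilins and UNC5 receptors. H3K9me3 typically spreads in long blocks over gene-poor chromatin, and much of that chromatin lies against the nuclear lamina, the protein mesh to which lamin B1 belongs. RPE-1 is an epithelial line, and synaptic adhesion is not among the known roles of that cell type.

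For each library the authors deposited a list of domains, stretches of the genome with more H3K9me3 reads than input, and a gene is called covered over the percent of its bases that lie in listed domains. A domain entered a list only past a log2 enrichment of 0.6 over input, so an uncovered gene is one outside the list, and H3K9me3 below that level would not be seen. The lists held 5366 to 11322 domains and 357 to 646 Mb in LmnB1 libraries, and 6060 to 8579 domains and 320 to 529 Mb in mCherry libraries. H3K9me3 reads in listed domains ranged from 4467294 to 10321442 in LmnB1 libraries and from 2855378 to 6959349 in mCherry libraries. Within the LmnB1 group, LmnB1_6 replicate 2 stood apart, with the shortest covered length and a pooled log2 enrichment of 0.71, against 0.932 to 1.14 in the other LmnB1 libraries. Within the mCherry group, mCherry_4 replicate 1 had a depth of 0.421 relative to input and replicate 2 the lowest pooled log2 enrichment, 0.722. Of the 10 markers of retinal pigment epithelium examined, 8 were uncovered in all 8 libraries, as were all 5 epithelial markers and 3 of 5 neuronal markers, beside 79.3% of all protein-coding genes. Coverage is not a measure of expression, so these markers do not check the identity of the cells.

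The 9 genes fell into 2 sets that were the same with either construct. LRRC4C, LRRTM1, LRRTM4 and FLRT3 lay in H3K9me3 domains in all 8 libraries, while SLITRK1, SLITRK3, SLITRK5, SLITRK6 and FLRT2 were covered over 0% of the gene body in all 8. At least 50% of the body was covered for 4 of the 9 genes in every library except LmnB1_6 replicate 2, where 2 passed that level, LRRC4C and FLRT3. The share of all protein-coding genes at that level ranged from 3.3% to 6.39% in LmnB1 libraries and from 2.91% to 5.76% in mCherry libraries. Among the 9 genes the division followed the LRRTM family, all covered, and the SLITRK family, all uncovered. It did not follow the FLRT family, since FLRT3 was covered and its relative FLRT2 was not.

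**Figure D1:**
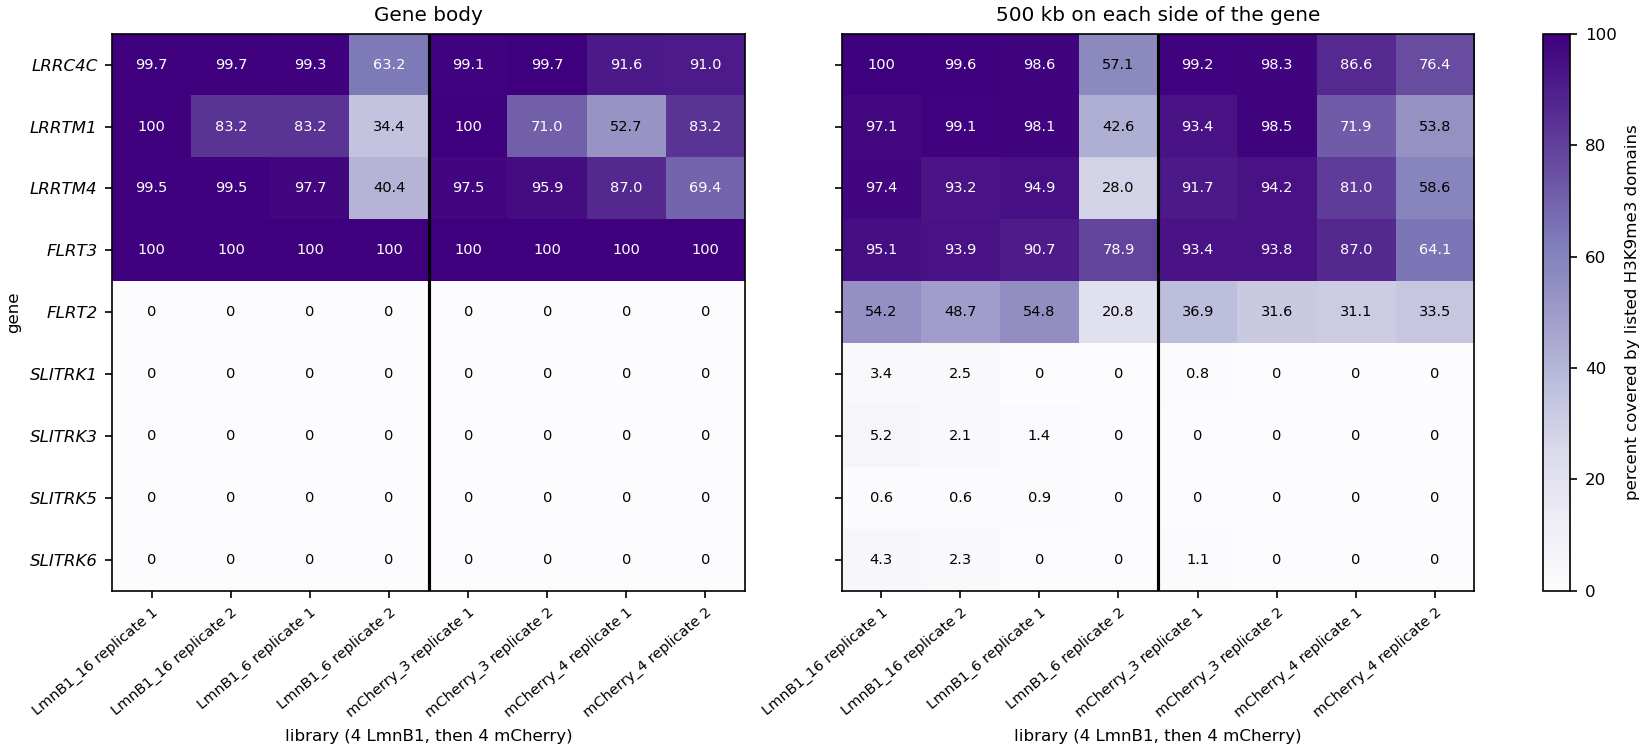
Percent of the gene body (left) and of the 500 kb on each side of the gene (right) covered by listed H3K9me3 domains, one row per gene and one column per library, with LmnB1 libraries left of the line and mCherry libraries right of it. LRRC4C, LRRTM1, LRRTM4 and FLRT3 are covered in all 8 libraries and the other 5 genes in none, and LmnB1_6 replicate 2 is the palest column among the first 3 genes.

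The sequences around the transcription starts are given here as a description of these loci. RefSeq promoter windows on GRCh38.p14, which run from 250 bases before the start to 50 after it, were at hand for 7 of the 9 genes, with 13 windows in all. No window was among them for LRRC4C and LRRTM4. The first windows of LRRTM1 and FLRT3, from the covered set, and of FLRT2 and SLITRK6, from the uncovered set, are printed 5′ to 3′ on the strand of the gene, with CG dinucleotides, the sites of DNA methylation, in capitals. They lie at chr2:80304703-80305002 (minus strand), chr20:14337563-14337862 (minus), chr14:85529894-85530193 (plus) and chr13:85799370-85799669 (minus).
LRRTM1: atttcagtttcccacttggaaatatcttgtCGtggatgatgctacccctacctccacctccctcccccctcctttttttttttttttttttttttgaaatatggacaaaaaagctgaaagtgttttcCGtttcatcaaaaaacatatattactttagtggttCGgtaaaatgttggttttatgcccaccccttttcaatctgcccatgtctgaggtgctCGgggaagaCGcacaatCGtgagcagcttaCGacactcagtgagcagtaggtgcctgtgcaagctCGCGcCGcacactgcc
FLRT3: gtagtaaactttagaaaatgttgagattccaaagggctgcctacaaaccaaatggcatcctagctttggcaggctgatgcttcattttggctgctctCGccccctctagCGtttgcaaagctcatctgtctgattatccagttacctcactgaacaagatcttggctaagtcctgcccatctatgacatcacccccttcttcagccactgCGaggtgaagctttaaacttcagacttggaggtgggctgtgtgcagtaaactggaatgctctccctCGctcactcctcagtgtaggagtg
FLRT2: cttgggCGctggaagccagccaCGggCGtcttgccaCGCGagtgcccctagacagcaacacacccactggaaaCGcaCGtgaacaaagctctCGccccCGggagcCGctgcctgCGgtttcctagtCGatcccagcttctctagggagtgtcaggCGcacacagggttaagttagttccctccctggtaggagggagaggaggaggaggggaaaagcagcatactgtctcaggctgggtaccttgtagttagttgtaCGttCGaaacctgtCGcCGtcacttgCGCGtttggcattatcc
SLITRK6: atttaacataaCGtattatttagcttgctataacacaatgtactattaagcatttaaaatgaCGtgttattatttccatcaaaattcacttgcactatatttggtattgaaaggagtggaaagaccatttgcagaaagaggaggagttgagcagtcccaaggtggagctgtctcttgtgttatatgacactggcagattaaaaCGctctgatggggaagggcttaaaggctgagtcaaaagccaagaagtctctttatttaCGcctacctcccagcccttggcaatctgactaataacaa
These windows held 10 CG dinucleotides in LRRTM1, 4 in FLRT3, 19 in FLRT2 and 4 in SLITRK6. The median over all 35116 RefSeq windows of the same length was 14, and 75.5% of them held at least 4. Both covered windows, LRRTM1 and FLRT3, lay below this median. The windows of the uncovered genes lay on either side of it. FLRT2, with 19 to 25, and SLITRK5, with 18 to 36, were above it in every window. SLITRK1, with 7 and 11, and SLITRK6 were below it, and SLITRK3 had 10 and 21. SLITRK6, which matched FLRT3, held the fewest of the uncovered set and was printed after its value was seen. LRRC4C and LRRTM4 had no window, and whether the number of CG separates the sets was not tested. The letters TATAAA, searched on both strands, occurred in 11.5% of all windows and in none of the 13 windows of these genes. A search of this kind describes the letters of the window and says nothing about binding.

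FLRT3 was the only one of the 9 genes covered from end to end in every library. The gene spans 14.6 kb at chromosome 20, positions 14322985 to 14337612, inside MACROD2 and on the opposite strand. FLRT3 is known for cell adhesion and for signalling with fibroblast growth factor receptors, in the embryo as well as in neurons. Its promoter window was listed in 8 of 8 libraries. The host gene MACROD2 was covered over 100%, 99.8%, 98.6% and 91.4% of its length in LmnB1_16 replicates 1 and 2 and LmnB1_6 replicates 1 and 2, against 99.3%, 99.6%, 93.8% and 75.9% in mCherry_3 replicates 1 and 2 and mCherry_4 replicates 1 and 2. Neighbouring SEL1L2 and KIF16B were covered unevenly: KIF16B had 98.7%, 99.9%, 11.9% and 3.28% in the LmnB1 libraries in the same order, against 47.8%, 42.8%, 33.5% and 16.9% in the mCherry libraries. FLRT3 thus kept full coverage in libraries where KIF16B, 1934 kb away, had little. The sequence between them was still covered over 98.3% and 91.5% in LmnB1_6 replicates 1 and 2 and 77.6% in mCherry_4 replicate 2.

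LRRC4C, which encodes the netrin-G1 ligand, lies alone on chromosome 11, positions 40114199 to 41459652, 3455 kb from the nearest protein-coding gene on one side, IFTAP, and 1852 kb from that on the other, API5. Both neighbours were covered over 0% in all 8 libraries. The body of LRRC4C was covered over 99.7%, 99.7%, 99.3% and 63.2% in LmnB1_16 replicates 1 and 2 and LmnB1_6 replicates 1 and 2, against 99.1%, 99.7%, 91.6% and 91.0% in mCherry_3 replicates 1 and 2 and mCherry_4 replicates 1 and 2. The groups overlapped, and the value of LmnB1_6 replicate 2 was the lowest of all. Every base of the gene lay in a domain in at least 5 libraries, and 55.0% of the body, 740 kb, did so in all 8. The number of domains over the gene was 2, 2, 3 and 11 in the LmnB1 libraries and 4, 2, 15 and 14 in the mCherry libraries, so the same stretch was listed as a few long blocks in some libraries and as many short ones in others. The longest uncovered stretch of its body measured 4, 4, 5 and 179 kb in the LmnB1 libraries in the same order, against 4, 4, 25 and 57.7 kb in the mCherry libraries.

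LRRTM4, whose protein binds neurexins and glypicans at excitatory synapses, spans 775 kb of chromosome 2, positions 76747685 to 77522376, between GCFC2 and REG3G. Coverage of the body was 99.5%, 99.5%, 97.7% and 40.4% in LmnB1_16 replicates 1 and 2 and LmnB1_6 replicates 1 and 2, against 97.5%, 95.9%, 87.0% and 69.4% in mCherry_3 replicates 1 and 2 and mCherry_4 replicates 1 and 2. The groups overlapped, with LmnB1_6 replicate 2 again the lowest. A share of 27.7% of the body lay in a domain in all 8 libraries. Within the gene, the 6 kb from chr2:76776001-76782000 were listed in 1 to 4 libraries only, whereas the rest of the body was listed in at least 5. GCFC2, on the side of the gene with lower coordinates, was covered over 0% in every library. REG3G, on the other side, was covered over 100% in every LmnB1 library, against 100%, 0%, 100% and 0% in the mCherry libraries in the same order.

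**Figure D2:**
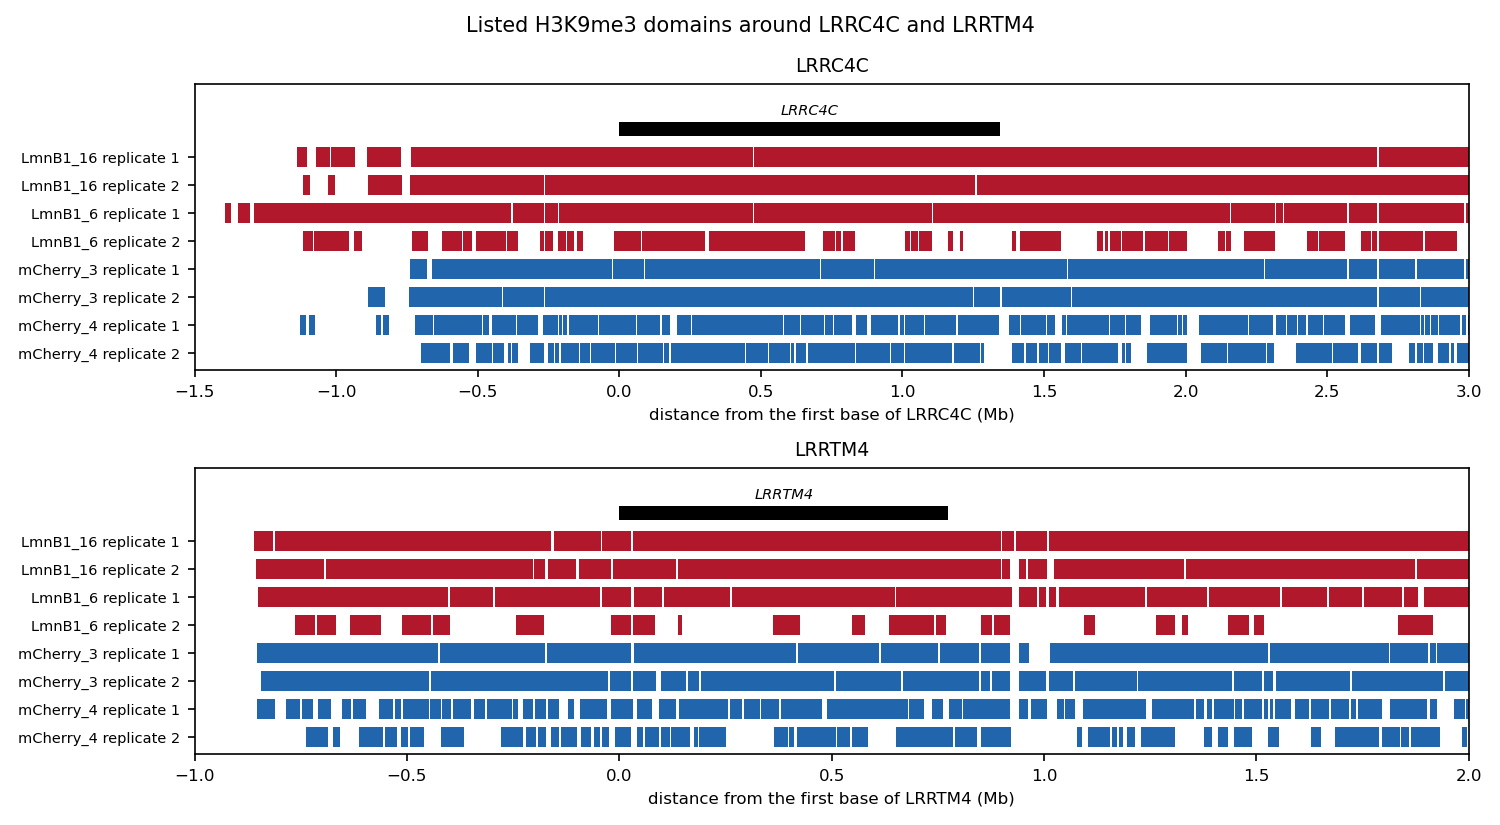
Listed H3K9me3 domains (coloured bars, one row per library, LmnB1 above mCherry) against distance in Mb from the first base of LRRC4C (top) and LRRTM4 (bottom), with the gene as a black bar. Both genes lie within long listed blocks in most libraries, while LmnB1_6 replicate 2 and the mCherry_4 libraries show the same regions broken into shorter pieces.

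LRRTM1, a synapse organiser of the same family as LRRTM4, spans 16.4 kb at chromosome 2, positions 80288356 to 80304752, inside CTNNA2 and on the opposite strand. CTNNA2 encodes a neuronal alpha-catenin. Coverage of LRRTM1 was 100%, 83.2%, 83.2% and 34.4% in LmnB1_16 replicates 1 and 2 and LmnB1_6 replicates 1 and 2, against 100%, 71.0%, 52.7% and 83.2% in mCherry_3 replicates 1 and 2 and mCherry_4 replicates 1 and 2. In the 6 libraries with partial coverage, the uncovered part was the start of the gene. The promoter window printed above lay in a domain only in LmnB1_16 replicate 1 and mCherry_3 replicate 1.

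The gap over the LRRTM1 start measured 4 kb in LmnB1_16 replicate 2 and LmnB1_6 replicate 1, at chr2:80302001-80306000 in both, and 13 kb in LmnB1_6 replicate 2. It measured 15 kb in mCherry_3 replicate 2 and 12 kb in each mCherry_4 library. The shortest gap anywhere in the lists was 4 kb, so 4 kb is the finest break that these lists can show. A start of CTNNA2 at chr2:80313129-80313428 lay in the same gap in mCherry_3 replicate 2 and mCherry_4 replicate 2 and was listed in the other 6 libraries. The other 3 windows of CTNNA2 were listed in 7, 6 and 8 libraries. Over all RefSeq windows, 1.95% were covered in all 8 libraries and 87.7% were touched by a domain in none.

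**Figure D3:**
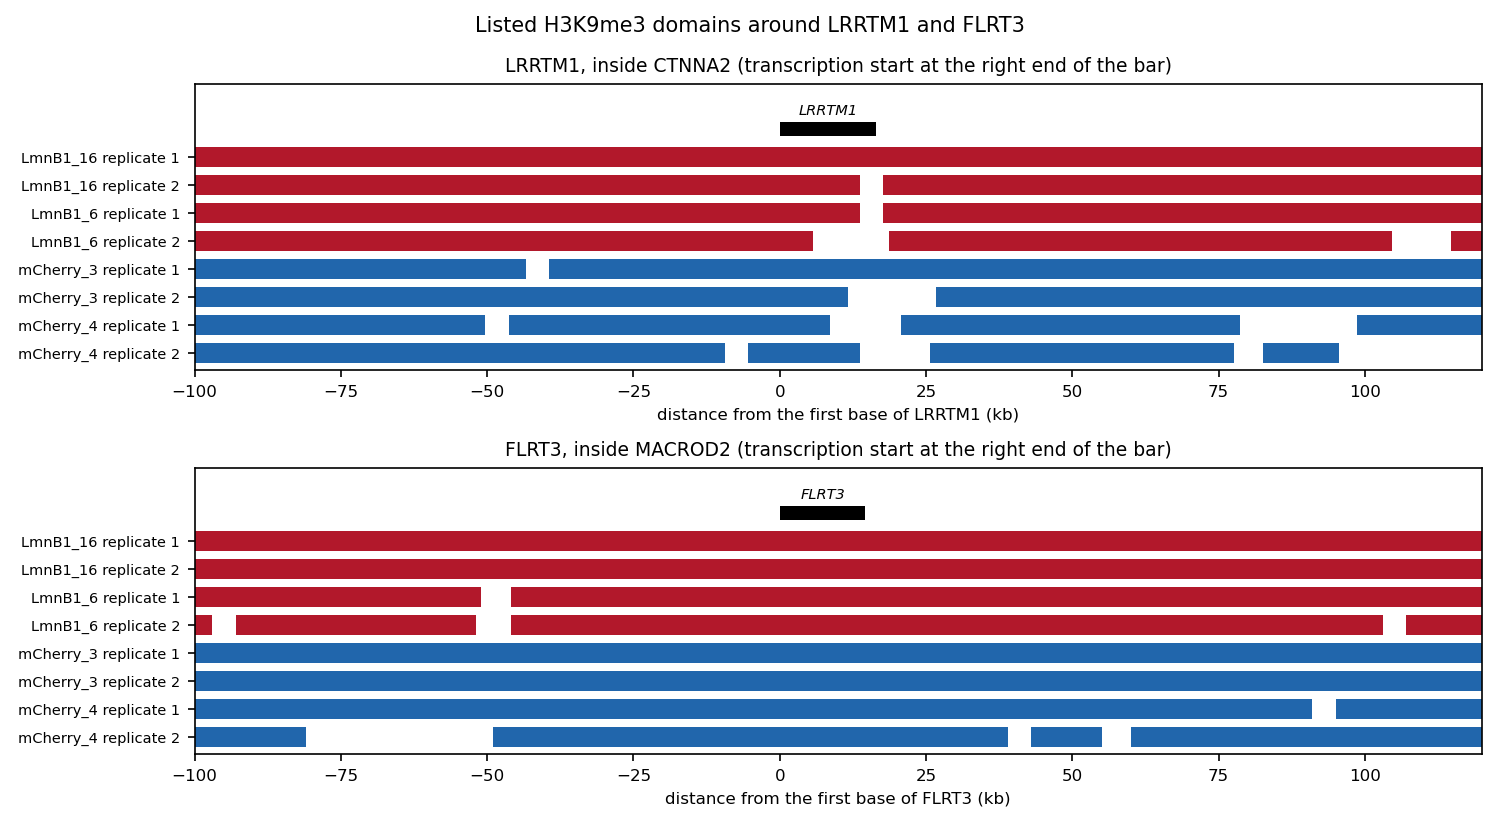
Listed H3K9me3 domains (coloured bars, one row per library, LmnB1 above mCherry) against distance in kb from the first base of LRRTM1 (top) and FLRT3 (bottom), with the gene as a black bar. White gaps of 4 to 15 kb lie over the right end of LRRTM1, its transcription start, in 6 of 8 libraries, and no gap falls within FLRT3.

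Coverage of the 4 genes did not differ detectably between the constructs. In limma, fitted to the covered percent of all 2304 genes with a mean of at least 5% and with the clone as a random block, 0.304% of genes passed an adjusted p of 0.05, 0.217% (5 genes) higher and 0.0868% (2) lower with LmnB1. None of the 4 covered genes was among them, and their unadjusted p in limma ranged from 0.69 to 0.945 where the gene varied. LRRC4C averaged 90.5% ± 18.2 in LmnB1 libraries and 95.4% ± 4.68 in mCherry libraries (SD, n = 4 each), a difference of −4.89 points with a standard error of 11.8 and an adjusted p of 0.994 in limma. LRRTM4 averaged 84.3% ± 29.2 in LmnB1 libraries and 87.5% ± 12.9 in mCherry libraries, a difference of −3.19 points (standard error 19.6, adjusted p 1.0 in limma). LRRTM1 averaged 75.2% ± 28.3 in LmnB1 libraries and 76.7% ± 19.9 in mCherry libraries, a difference of −1.52 points (standard error 21.5, adjusted p 1.0 in limma). The exact two-sided permutation test over 70 assignments of the libraries gave p values of 0.971 for LRRC4C, 1.0 for LRRTM4 and 0.971 for LRRTM1.

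Without LmnB1_6 replicate 2, the 3 differences became 4.18 points for LRRC4C (standard error 2.82), 11.2 for LRRTM4 (8.96) and 11.3 for LRRTM1 (18.3), with adjusted p of 0.679, 0.763 and 0.854 in limma. The sign of these differences thus changed when this library was left out, and for LRRTM1 also without mCherry_3 replicate 1 (6.01 points) or mCherry_4 replicate 2 (3.05). With every list cut from its lowest scores to equal covered length, the differences were −53.7 points for LRRC4C (standard error 22.8), −36.2 for LRRTM4 (17.7) and −68.1 for LRRTM1 (17.4), with adjusted p of 0.753, 0.753 and 0.464 in limma. In the highest-scoring 50% of each list they were −9.38, −12.4 and −47.3 points, with adjusted p of 0.978, 0.802 and 0.802 in limma. With the full lists the standard errors were 11.8 to 21.5 points, and even a shift as large as these would not be detected. Without LmnB1_6 replicate 2, limma called 60 of 2358 genes. FLRT3 had no spread to test. The exact permutation tests take each library as a separate sample even where 2 come from 1 clone, whereas limma took the clone as a random block. With whole clones exchanged there are 6 assignments, and no permutation p under 0.333 could be reached.

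The domain around each covered gene, taken as the listed domain holding most of its body, varied far more in length than the coverage did. Around LRRC4C it measured 2201, 1520, 629 and 337 kb in LmnB1_16 replicates 1 and 2 and LmnB1_6 replicates 1 and 2, against 620, 1509, 322 and 260 kb in mCherry_3 replicates 1 and 2 and mCherry_4 replicates 1 and 2. The 2201 kb domain ranked 15th by length of the 11322 in its list. Around FLRT3 it measured 2595, 1068, 187 and 149 kb in the LmnB1 libraries in the same order, against 947, 993, 300 and 88 kb in the mCherry libraries. The longest of these ranked 8th in its list. Both lengths were greater in both LmnB1_16 libraries than in any mCherry library, and shorter in both LmnB1_6 libraries than in both mCherry_3 libraries for FLRT3.

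Around LRRTM4 the domain measured 866, 760, 383 and 106 kb in the LmnB1 libraries, against 382, 314, 190 and 133 kb in the mCherry libraries. Around LRRTM1 it measured 1199, 261, 255 and 227 kb in the LmnB1 libraries, against 174, 864, 55 and 19 kb in the mCherry libraries. In LRRTM1 the 2 longest were thus 1 LmnB1 and 1 mCherry library, and both mCherry_4 libraries were the shortest. In all 4 genes the groups overlapped.

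Mean lengths were greater with LmnB1 in all 4 genes, but no difference passed the test. In limma on log2(length in kb + 1) over the same 2304 genes, 0.0868% passed, 2 genes, both longer with LmnB1. The log2 difference was 0.79 for LRRC4C (standard error 1.15, adjusted p 0.988), 1.69 for LRRTM1 (1.61, 0.988), 0.78 for LRRTM4 (1.15, 0.988) and 0.41 for FLRT3 (1.46, 0.998). Over all genes tested the median log2 difference was 0.79, as large as in LRRC4C and LRRTM4. Exact two-sided permutation p-values on the lengths in kb were 0.229, 0.457, 0.257 and 0.571 in the same order of genes. When only the highest-scoring 50% of each list was used, all 4 differences changed sign, to −3.61, −2.88, −3.31 and −6.75, and none passed.

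The authors' log2 enrichment of these domains showed how close to the listing threshold each library lay. For the domain around LRRC4C it was 1.09, 0.881, 0.918 and 0.632 in the LmnB1 libraries, against 0.862, 0.877, 0.828 and 0.628 in the mCherry libraries. That around FLRT3 had 1.12, 0.939, 1.05 and 0.69 in the LmnB1 libraries, against 0.936, 0.883, 0.935 and 0.728 in the mCherry libraries. In both genes LmnB1_6 replicate 2 and mCherry_4 replicate 2 were the lowest of their groups and came nearest to 0.6, and these were also the libraries with the shortest domain of their group around either gene. The domain around LRRC4C held 34847 H3K9me3 and 18621 input reads in LmnB1_16 replicate 1, against 3017 and 2273 in mCherry_4 replicate 2. As domains enter a list only past the threshold, no test was made of these values.

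**Figure D4:**
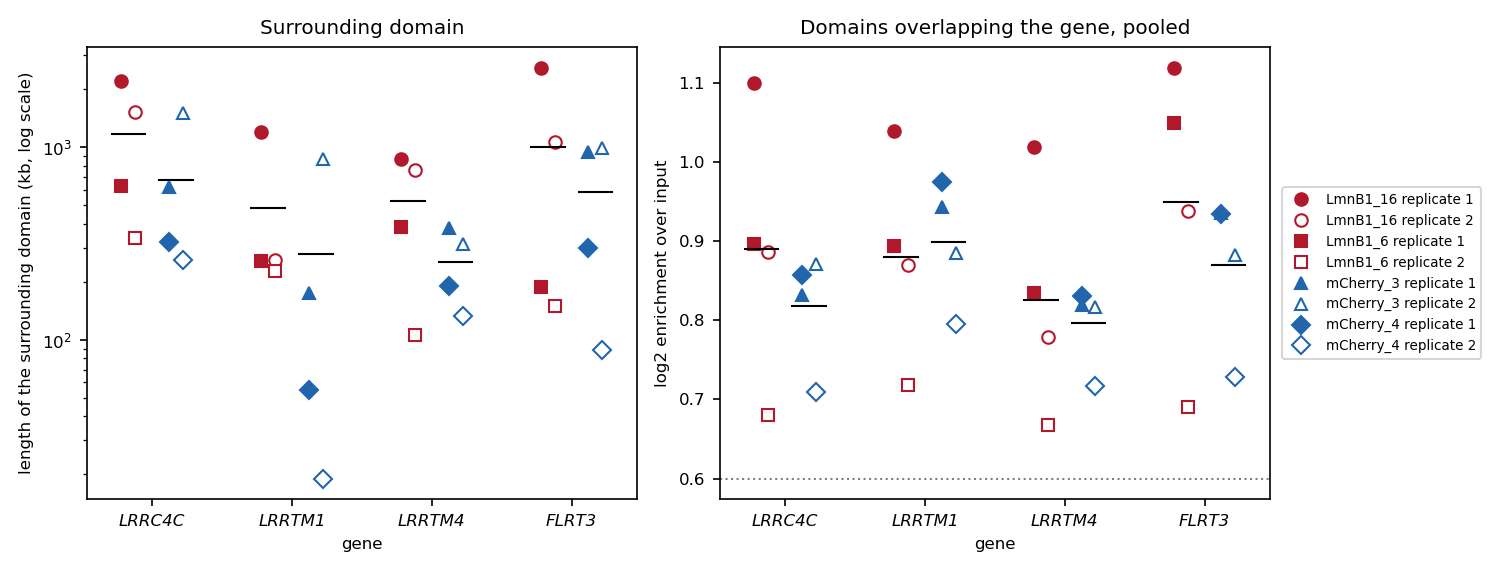
Length in kb (log scale, left) of the listed domain around LRRC4C, LRRTM1, LRRTM4 and FLRT3, and the pooled log2 enrichment over input of all domains overlapping each gene (right), 1 point per library with LmnB1 left of mCherry; black lines are group means and the dotted line is the listing threshold of 0.6. Lengths spread from 19 to 2595 kb with the groups overlapping in every gene, and LmnB1_6 replicate 2 has the lowest enrichment in each.

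FLRT2, which like FLRT3 binds latrophilins and UNC5 receptors, was uncovered although domains lay on both sides of it. The gene spans 124 kb of chromosome 14, positions 85530144 to 85654428, 1555 kb from LOC124903401 on the side of lower coordinates and 2279 kb from GALC on the other. It sat in an unlisted gap of 528, 616, 542 and 608 kb in LmnB1_16 replicates 1 and 2 and LmnB1_6 replicates 1 and 2, against 520, 703, 677 and 489 kb in mCherry_3 replicates 1 and 2 and mCherry_4 replicates 1 and 2. The gap was thus of like size with either construct, and its edges never came closer than 235 kb before the gene and 76.6 kb after it. All 3 promoter windows of FLRT2, with 19 to 25 CG dinucleotides, lay in it.

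The flank of FLRT2 towards LOC124903401 was listed with LmnB1 and largely unlisted with mCherry. Of these 1555 kb, 75.8%, 69.1%, 80.7% and 68.6% were covered in the LmnB1 libraries, against 6.94%, 7.33%, 9.59% and 6.30% in the mCherry libraries. The groups did not overlap. The means were 73.5% ± 5.77 in LmnB1 libraries and 7.54% ± 1.43 in mCherry libraries (SD, n = 4 each). The exact two-sided permutation p was 0.0286, the smallest that 70 assignments of single libraries allow. With whole clones exchanged, no permutation p under 0.333 could be reached. How often such intervals to 1 side separate over all genes was not counted. Both LmnB1 clones had the higher coverage. The flank falls in a gene-poor block of chromosome 14 that was already known to differ between the constructs in these lists. Its value here is therefore a description. The flank towards GALC had a covered share of 95.8%, 95.7%, 93.0% and 75.0% in the LmnB1 libraries, against 93.0%, 90.5%, 85.1% and 85.7% in the mCherry libraries, and the groups overlapped (exact two-sided permutation p = 0.857).

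Over the whole interval from LOC124903401 to GALC, coverage was 80.6% ± 7.13 in LmnB1 libraries and 54.0% ± 2.05 in mCherry libraries (SD, n = 4 each). The limma difference was 26.7 points, with a standard error of 6.34 and an unadjusted p of 0.00344. This interval holds the flank already known to differ between the constructs, and such intervals were added after the data had been seen. Its limma p is therefore a description. The adjusted p over 4071 such intervals was 0.584, so the difference did not pass, beside 0.0246% that did. Every LmnB1 value lay above every mCherry value in 6.17% of those intervals, among them those of FLRT2 and SLITRK1 of the 6 genes tested here. Within 500 kb on each side of FLRT2, coverage was 54.2%, 48.7%, 54.8% and 20.8% in the LmnB1 libraries, against 36.9%, 31.6%, 31.1% and 33.5% in the mCherry libraries. This difference, 11.3 points with a standard error of 13.9, gave an adjusted p of 1.0 in limma, where 0.0185% of 5416 genes passed. Without LmnB1_6 replicate 2 it became 19.8 points with a standard error of 5.46 and an adjusted p of 0.815, and without LmnB1_6 replicate 1 it became 3.38 points with a standard error of 10.7 and an adjusted p of 1.0.

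SLITRK1, SLITRK6 and SLITRK5 lie in this order in 1 gene desert of chromosome 13, so their surroundings are shared and are not separate observations. SLITRK1 is at positions 83877205 to 83882474, SLITRK6 at 85792790 to 85799419 and SLITRK5 at 87671371 to 87679616. SLITRK5 is not alone there: the protein-coding gene LOC124900338, of 58.1 kb, overlaps it, and LOC124903229 lies 43.0 kb away. Both of these were covered over 0% in every library. SLITRK1 has been linked to Tourette syndrome, SLITRK6 is required for hearing and for normal growth of the eye, and SLITRK5 acts in striatal circuits in mice. Near these genes the desert was almost wholly outside the lists. The unlisted stretch around SLITRK1 measured 132, 133, 5674 and 8624 kb in LmnB1_16 replicates 1 and 2 and LmnB1_6 replicates 1 and 2, against 3514, 7491, 20955 and 8264 kb in mCherry_3 replicates 1 and 2 and mCherry_4 replicates 1 and 2. In LmnB1_16 it was broken by short domains, and in LmnB1_6 it was not.

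Between SPRY2 and SLITRK1, 3536 kb, coverage differed between the LmnB1 clones. In replicates 1 and 2 it was 3.37% and 1.98% for LmnB1_16 and 51.4% and 48.2% for LmnB1_6, against 0.226% and 0.17% for mCherry_3 and 0% in both mCherry_4 libraries. The groups did not overlap (exact two-sided permutation p = 0.0286), but with whole clones exchanged no permutation p under 0.333 could be reached. How often intervals to 1 side separate over all genes was not counted. The means, 26.2% ± 27.3 in LmnB1 libraries and 0.0990% ± 0.117 in mCherry libraries (SD, n = 4 each), rest on LmnB1_6. In the interval from SPRY2 to SLITRK6, limma gave a difference of 17.4 points with a standard error of 8.33 and an adjusted p of 1.0. The listed block in LmnB1_6 ended 1568 and 1572 kb before SLITRK1 in replicates 1 and 2. Between SLITRK5 and GPC5, coverage was 1.77%, 0.941%, 11.5% and 6.56% in the LmnB1 libraries, against 0.430%, 0.430%, 0% and 0% in the mCherry libraries. The groups did not overlap there either (exact two-sided permutation p = 0.0286), and the highest values were again those of LmnB1_6.

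**Figure D5:**
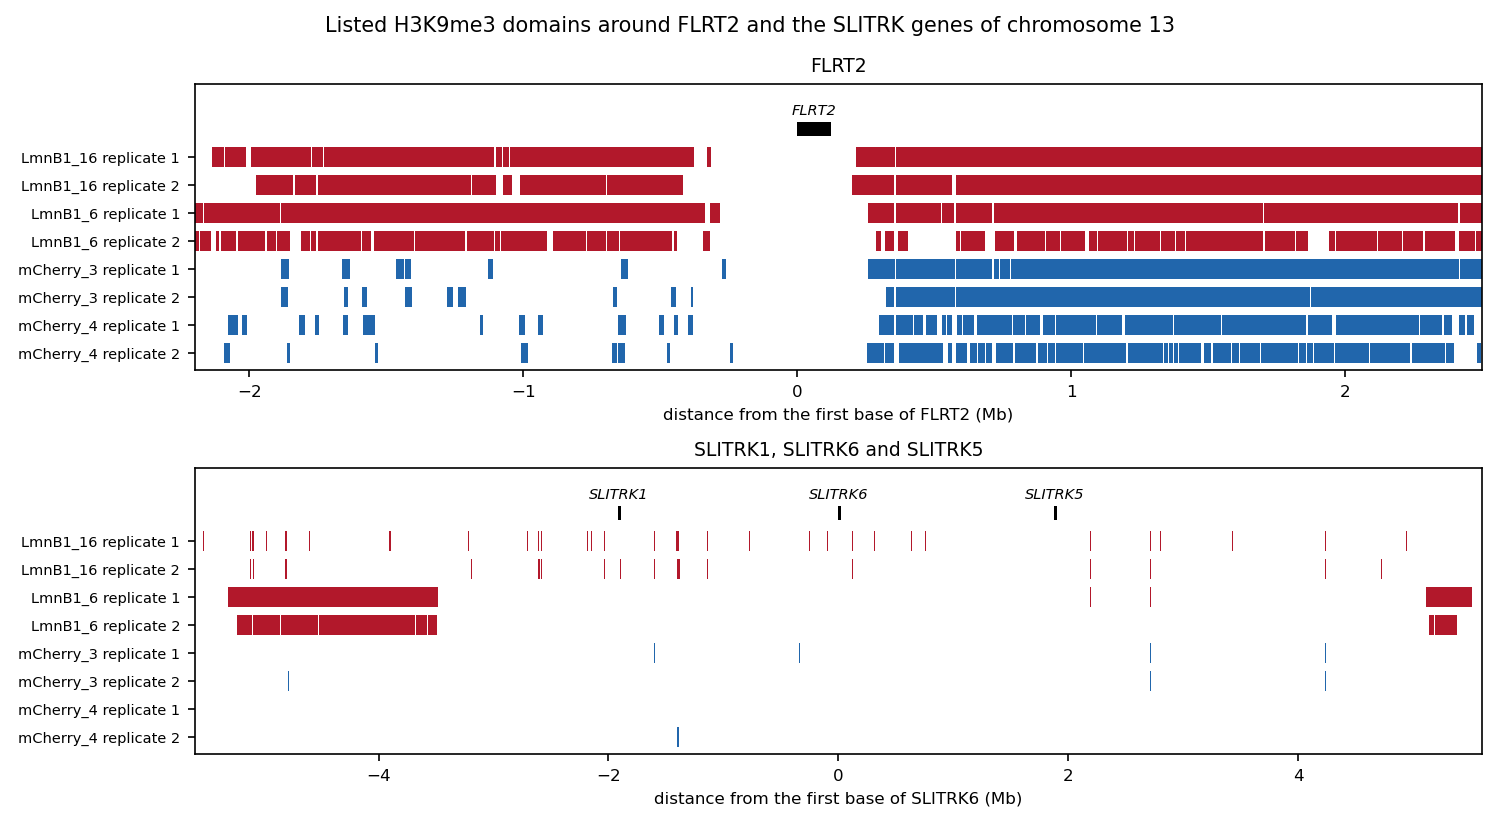
Listed H3K9me3 domains (coloured bars, one row per library, LmnB1 above mCherry) against distance in Mb from the first base of FLRT2 (top) and of SLITRK6 (bottom), with genes as black bars. FLRT2 sits in a gap of 489 to 703 kb in all 8 libraries, with a flank on its left that is listed in the 4 LmnB1 libraries and sparse in the 4 mCherry libraries; the SLITRK genes lie in mostly unlisted sequence, with a long block left of them in both LmnB1_6 libraries.

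SLITRK3, known for building inhibitory synapses through PTPRD, lies in more crowded surroundings on chromosome 3, positions 165186720 to 165197109, 96.5 kb from SI and 576 kb from BCHE. Neither neighbour was covered in any library. The unlisted stretch around SLITRK3 measured 391, 1098, 1096 and 2957 kb in LmnB1_16 replicates 1 and 2 and LmnB1_6 replicates 1 and 2, against 2504, 2502, 5575 and 4779 kb in mCherry_3 replicates 1 and 2 and mCherry_4 replicates 1 and 2. Within 500 kb on each side, 5.2%, 2.1%, 1.4% and 0% were covered in the LmnB1 libraries, against 0% in all 4 mCherry libraries (exact two-sided permutation p = 0.143). Within the same distance of SLITRK1, SLITRK5 and SLITRK6 at most 4.3% was covered in LmnB1 libraries and at most 1.1% in mCherry libraries. The means of these 4 genes were below the 5% needed for limma.

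Around the 4 covered genes, the 500 kb on each side were covered too, in places less or more than the gene itself: FLRT3 lay in surroundings covered over 64.1% in mCherry_4 replicate 2, and LRRTM1 had 53.8% around a body covered over 83.2% in the same library. LRRC4C had 100%, 99.6%, 98.6% and 57.1% in the LmnB1 libraries, against 99.2%, 98.3%, 86.6% and 76.4% in the mCherry libraries. LRRTM1 had 97.1%, 99.1%, 98.1% and 42.6% in the LmnB1 libraries, against 93.4%, 98.5%, 71.9% and 53.8% in the mCherry libraries. The ranges of LRRTM4 and FLRT3 were 28.0% to 97.4% and 78.9% to 95.1% in LmnB1 libraries, and 58.6% to 94.2% and 64.1% to 93.8% in mCherry libraries. In none of them did the groups separate, and the limma differences of −1.31, 4.84, −3.00 and 5.08 points for LRRC4C, LRRTM1, LRRTM4 and FLRT3 all had an adjusted p of 1.0.

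Genes far from other genes occurred in both sets. Of all protein-coding genes, 1.82% were covered over at least 50% of the body in all 8 libraries and 79.3% over 0% in all 8. Distances here are to the nearest gene that does not overlap, so that the hosts of LRRTM1 and FLRT3, and LOC124900338 at SLITRK5, are not counted. Of the 54 genes with over 1000 kb to such a gene on both sides, 6 (11.1%) were covered at that level and 15 (27.8%) were at 0. This class holds 6 of the 9 genes. Of these, LRRC4C was covered over at least 50% in all 8 libraries, and SLITRK1, SLITRK6 and FLRT2 were at 0. LRRTM1 and LRRTM4 had coverage in all 8, but fell to 34.4% and 40.4% in LmnB1_6 replicate 2 and so missed that level. The distance of 1000 kb was chosen after the values had been seen, and these shares are given as a description.

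Genes on other chromosomes with the most similar coverage over the 8 libraries were found by the mean absolute difference in covered percent. For LRRC4C they were MYO3A, at 1.67 points, ZNF737, at 2.37, and RORB, at 2.82. For LRRTM4 they were CNTNAP4, a contactin-associated protein of neurons, at 1.43 points, PREX2, at 2.08, and CNTN3, a contactin, at 2.48. LRRTM1 had no gene as close, with NOL4 at 7.70 points, ZFP28 at 10.6 and ZNF709 at 10.7. In all 9 of these genes LmnB1_6 replicate 2 was the lowest library, in ZNF709 level with mCherry_4 replicate 1, and all values come from the same 8 lists. The genes were chosen by these same values, so a shared lowest library follows in part from the choice.

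A list of 52 other genes of the pathway held 7 other members of the same families, 27 other leucine-rich repeat genes of neurons and 18 binding partners, and all 52 were in the table. In all 8 libraries 29 of the 52 were at 0%, where 79.3% of all protein-coding genes were. Covered over at least 50% in all 8 were 2 of the 52, beside 1.82% of all genes: LINGO2, which encodes a neuronal leucine-rich repeat protein, and NTRK2, the receptor of brain-derived neurotrophic factor. NTRK2 had 100%, 100%, 98.9% and 93.3% in the LmnB1 libraries, against 100%, 100%, 91.2% and 92.3% in the mCherry libraries. LINGO2 had 98.1%, 96.8%, 96.7% and 52.8% in the LmnB1 libraries, against 79.0%, 80.1%, 80.4% and 76.2% in the mCherry libraries. Of the 7 family members, 4 were at 0% in all 8 libraries (LRRC4, LRRC4B, LRRTM2 and FLRT1), and LRRTM3, SLITRK2 and SLITRK4 varied from library to library.

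Of the 52 genes 17 entered the limma test, and none passed, beside 0.304% of all 2304, nor did any have an unadjusted p under 0.05. Their median difference was 0 points and 8 of 17 were above 0, while over all genes tested the median was 3.73 points and 1387 of 2304 were above 0. The 3 with the largest differences were LRRTM3, LRRN1 and LRFN5. LRRTM3, of the same family as LRRTM4, had a covered share of 100%, 100%, 100% and 0% in the LmnB1 libraries, against 0%, 0%, 100% and 0% in the mCherry libraries. LRRN1, a neuronal leucine-rich repeat gene, had 90.1%, 100%, 100% and 100% in the LmnB1 libraries, against 85.0%, 96.9%, 75.1% and 0% in the mCherry libraries. LRFN5, a synaptic adhesion gene, had 5.04%, 0%, 97.3% and 35.3% in the LmnB1 libraries, against 5.71%, 0%, 9.74% and 9.07% in the mCherry libraries, and its high values were those of clone LmnB1_6. In all 3 the groups overlapped.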

How the data were processed

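The members and gene lists were chosen with earlier results of these data known. Per the labels' protocols, DNA was isolated with the EpiCypher CUTANA protocol and the ab8898 antibody, with NEBNext Ultra II for the libraries. The submitters' processing notes name the builds GRCh38 and hg38 and the tools deepTools, DESeq2, SICER and DiffBind 3.0.15, with no role for each. Not given in the sources used here: the aligner. Each deposited list, 1 per library, gives for every domain the authors' count of H3K9me3 reads and of input reads, a p-value and an adjusted p-value, the log2 enrichment over input, and a score that is 100 times the deposited log2 value. The smallest log2 in every list lies at 0.6 or just above. Domain edges fall on steps of 1000 bp, and the smallest gap is 4 kb. Reads were counted by the authors only in domains that the same library lists, so covered bases were compared and no count model was fitted.

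Positions came from a GRCh38.p14 table of 20037 protein-coding genes, which was matched by symbol, and promoter windows from RefSeq. Covered percent of the body, covered percent of the 500 kb on each side, and log2(domain length in kb + 1) were fitted with limma 3.58.1 (R 4.3.3), taking clone as the random block, over all genes with mean coverage of at least 5%, and adjusted with Benjamini-Hochberg at 0.05. The fit was tested on simulated data. Exact permutation tests (36 on single genes and 18 on intervals to 1 side) used 70 assignments, with a smallest p of 0.0286. Their p-values are unadjusted. Alternatives left out libraries, joined or filtered domains, and changed thresholds, blocks, intervals and pseudocounts; intervals between neighbouring genes and averaging of the mCherry_3 replicates were added after the data had been seen. Genes named beside the 9 are their neighbours and hosts, the 3 most similar genes of each gene with mean coverage of 5 to 95%, and list genes covered over at least 50% in all 8 libraries, past the threshold or among the 3 largest differences. The family members at 0% or varying, and the promoter windows printed, were chosen after their values were seen. Counts of the mCherry_3 replicates over 229 domains with identical coordinates showed no difference beyond sampling noise that was detectable (chi-square 1.08 per degree of freedom, p = 0.197; p of 0.000368 to 0.038 in the other clones), but their lists shared a fraction of 0.845 of their covered bases, so both were kept and averaging was tried. Scripts ran on Python 3.11.15 with scipy 1.17.1, pandas 2.3.3, numpy 2.4.6 and matplotlib 3.10.9.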

Additional observations from a re-analysis of the deposited data

Results flagged for a closer look

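Of 30 groups of 4 libraries with varying values, 8 held a library whose distance from the nearest other library, divided by the range of the group, was above Dixon's 95% critical value. The nominal rate of 1 in 20 holds for independent, normally distributed values. These percents often lie near 0% or 100%, and the body and surroundings of 1 gene are not independent. A group with all but 1 value at 0% passes whatever the size of that value. The count of flagged groups is therefore a description and cannot be set against the nominal rate. In 5 of the 8 flagged groups the library was LmnB1_6 replicate 2, the LmnB1 library with the lowest enrichment. It covered 63.2% of the LRRC4C body, against 99.3% to 99.7% in the other LmnB1 libraries, and 57.1% of the 500 kb on each side, against 98.6% to 100%. It covered 40.4% of the LRRTM4 body, against 97.7% to 99.5% in the other LmnB1 libraries, and 28.0% of the 500 kb on each side, against 93.2% to 97.4%. On each side of LRRTM1 it covered 42.6%, against 97.1% to 99.1% in the other LmnB1 libraries. The domain around LRRTM1 measured 1199 kb in LmnB1_16 replicate 1, against 227 to 261 kb in the other LmnB1 libraries. In mCherry_3 replicate 1, 0.8% of the surroundings of SLITRK1 and 1.1% of those of SLITRK6 were covered, against 0% in the other mCherry libraries.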

How the results depend on the processing

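No member passed in any of 146 values with altered processing or 96 with 1 library left out, of which 17 and 14 changed sign; none of these differences had passed before. At equal covered length the body differences became −53.7, −68.1 and −36.2 points for LRRC4C, LRRTM1 and LRRTM4, and in the highest-scoring 50% −9.38, −47.3 and −12.4. In the LRRTM1 body the difference became 6.87 points with domains joined, 8.05 with 5 kb added at both ends and 0.22 with mCherry_3 averaged. In surroundings the difference became −26.8 and −22.0 for LRRC4C and LRRTM4 in the highest-scoring 50%, −38.5 and −24.5 at equal covered length, and 28.6 for FLRT2 with 1000 kb. It also became −21.7 for LRRTM1 and −36.8 for FLRT3 in the highest-scoring 50%, −34.9 for LRRTM1 and −1.49 for FLRT2 at equal covered length, and 6.39 and 4.82 for LRRC4C with 1000 kb and with the interval between neighbouring genes. Log2 lengths became −3.61, −2.88, −3.31 and −6.75 for LRRC4C, LRRTM1, LRRTM4 and FLRT3 in the highest-scoring 50%, −1.67, −4.88 and −3.67 for the first 3 at equal covered length, and −0.07 for LRRTM4 summed over domains. Leaving out single libraries gave body differences of −12.3 to 4.18 points for LRRC4C, −11.1 to 11.3 for LRRTM1 and −14.8 to 11.2 for LRRTM4. It gave −10.9 to 9.11, −8.05 to 18.7, −18.5 to 13.7 and −1.02 to 9.71 points in the surroundings of LRRC4C, LRRTM1, LRRTM4 and FLRT3, 3.38 to 19.8 in those of FLRT2, and log2 lengths of −0.15 to 0.65 for FLRT3. The cause of these changes was not tested. Genes called numbered 8 to 60 for the body with 1 library left out (60 without LmnB1_6 replicate 2, 15 without mCherry_4 replicate 2, 11 without either mCherry_3 replicate). They numbered 0 to 1 for the surroundings and 0 to 8 for length, 8 without LmnB1_6 replicate 2. Genes called for the surroundings numbered 0 in the highest-scoring 50%, at equal covered length and with no filter, 23 with no clone block and 5 minus the library mean. For length they numbered 7 with domains joined, 6 in the highest-scoring 50%, 9 at equal covered length, 9 with no clone block, 0 and 11 with 10 and 0.1 kb added before the log, and 0 with mCherry_3 averaged. Replicate numbers do not pair the samples (correlations of deviations from −0.0245 to 0.0987); a replicate block gave 7, 1 and 0 genes called for body, surroundings and length. At least 10% and 90% of the body in place of 50% gave 4 and 1 members in the lowest library and 8 and 1 list genes in all 8. Precision is limited by 4 libraries from only 2 clones in each group, and by unequal depth. It is also limited by the threshold of 0.6, below which no H3K9me3 is listed.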

Other observations

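GPC5, a glypican gene beyond SLITRK5 on chromosome 13, was covered over 89.7% and 71.8% of its body in LmnB1_6 replicates 1 and 2, over 1.70% and 1.97% in LmnB1_16, over 0.613% and 1.29% in mCherry_3 and over 0% in both mCherry_4 libraries. MITF, a pigment cell regulator among the markers, was covered over 100% and 64.4% in LmnB1_6 replicates 1 and 2 and over 0% in the other 6 libraries. OTX2, a regulator of eye development, was covered over 100% and 29.3% in LmnB1_16 replicates 1 and 2 and over 0% in the other 6. Among binding partners, ROBO2, an axon guidance receptor, had 100%, 99.5%, 95.8% and 24.3% in LmnB1_16 replicates 1 and 2 and LmnB1_6 replicates 1 and 2, against 98.3%, 98.9%, 86.3% and 81.5% in mCherry_3 replicates 1 and 2 and mCherry_4 replicates 1 and 2. These 4 genes were chosen after their values were seen.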
